A study of Mus musculus with 4 samples.

Results

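Amino acids enter and leave cells, and cross the membrane of the lysosome, through carriers of several solute carrier families. The genes described here are the 62 genes on the array whose platform symbol begins with Slc1a, Slc6a, Slc7a, Slc36a, Slc38a or Slc43a and a number, or is Slc3a1 or Slc3a2, out of 19087 genes measured. They were chosen by name and not by their values. The name rule also takes Slc6a19os and Slc7a6os, which are named for lying opposite a carrier gene and encode no carrier, so that 60 of the 62 genes are carriers or their subunits. A few of the carriers move other substrates, such as creatine, taurine, neurotransmitters or purine bases.

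Transcripts were compared between mouse cybrids, cells that combine the nucleus of a recipient line with mitochondria of a donor. Both lines were LMEB3 fibroblasts at passage 3, grown in the same high-glucose medium with fetal bovine serum. LMEB3(mtB6), labelled the control, held mitochondria of C57BL/6J mice. LMEB3(mtBALB), labelled the mutant, held those of BALB/cJ mice. There were 4 two-colour arrays, each with RNA of 1 culture of either line, with mtB6 in Cy5 on replicates 1 and 3 and in Cy3 on replicates 2 and 4. The series' title speaks of independent clones without saying which culture came from which clone, so the p-values below speak only for these 4 pairs. With a dye term, they rest on the spread between pairs of the same dye orientation, drawn by limma towards that of all genes. Each SD is over all 4 pairs and measures another spread. The value of a gene is the log2 ratio between the lines on an array, averaged over its spots. The ratios were taken as already turned to 1 direction, which could not be settled. If they were not turned, the line and dye terms named below would change places. Neither the labels nor the values say which line is in the numerator, and values are therefore called positive or negative, and no line is called the higher. In a ratio of bulk RNA, fewer expressing cells and less RNA per cell cannot be told apart.

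The families divide the work by substrate and ion. Slc1a carriers take up glutamate or exchange small neutral amino acids with sodium, and Slc6a carriers use sodium and chloride. The cationic carriers of Slc7a work alone, while the Slc7a light chains need a heavy chain, Slc3a1 or Slc3a2, to reach the cell surface. Slc36a and Slc38a members are coupled to protons or sodium, several of them on lysosomes, and Slc43a members include facilitators of large neutral amino acids. When amino acids run short, the transcription factor ATF4 induces several of these genes through composite elements that also bind C/EBP factors, and the cystine carrier Slc7a11 is a well known example.

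Because that element is the textbook link between amino acid supply and these genes, it was searched in promoter windows of RefSeq (GRCm38.p6), 250 bases before to 50 bases after each start, as TGATGNAA and as its other strand, TTNCATCA. No other motif was searched. Windows were held for 45 of the 62 genes, and 3 of these 45 (6.67%) had a match, against 4.51% of 27025 genes with a window. The matches are shown in capitals, written 5′ to 3′ along the gene's strand. Slc7a11 had a pair of matches, from bases -66 and -47 relative to its start, in chr3:50443637-50443695 (minus strand). At least 2 matches stood in 23 of all 32851 windows, among them 1 window each of Slc7a11 and Slc7a7.
Slc7a11: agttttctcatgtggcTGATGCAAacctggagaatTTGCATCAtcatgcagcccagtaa
Slc1a4, the neutral amino acid exchanger ASCT1, had a match from base -4 in chr11:20332710-20332733 (minus strand).
Slc1a4: cagcgtgcctcctgcgTTGCATCA
Slc7a7, a light chain that exports cationic amino acids, had matches from bases -141 and -1, in chr14:54418062-54418101 and chr14:54417938-54417961 (minus strand).
Slc7a7 at -141: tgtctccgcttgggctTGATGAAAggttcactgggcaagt
Slc7a7 at -1: tttgggacctagaagcTGATGCAA
A match is a description of letters and does not show binding. On the arrays, Slc7a11 and Slc7a7 were among the genes whose ratio varied most between pairs. Slc1a4 had the smallest range among the genes with a spot dim on no array, a mark defined below.

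For many of the carriers, every spot had a value shared with other spots on at least 1 array. A spot is called dim here where at least 3 spots of the array had exactly the same value. Brightness itself was not measured. Of the 108 spots of the 62 genes, 35 were dim on no array and 60 on all 4. A spot dim on no array was found for 21 of the 62 genes (33.9%), against 51.2% of all genes. The 21 included 6 of 10 Slc7a light chains and 5 of 10 Slc38a genes, but 3 of 19 Slc6a genes, a family in which many members serve neurons, kidney or gut. Values close to 0 are also shared more easily, so the larger spread of the 21 genes is in part a matter of how they were picked. Their median range over the arrays was 0.64, against 0.27 for the other 41, of which 2 had a range of at least 0.5 (4.88%, against 16.9% of all genes with no spot free of dim values), and 0.55 for all 9774 genes with such a spot. Ratios give no expression level, so the fibroblast label could be checked only by this mark: 8 of 11 fibroblast markers had a spot dim on no array, against 2 of 7 for neurons, 0 of 5 for epithelium, 0 of 4 for endothelium, 3 of 5 for leukocytes, 1 of 3 for adipocytes and 1 of 3 for skeletal muscle.

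No carrier gene passed the test for a difference between the lines over the 4 pairs. In limma, with a dye term, 0 of 62 genes passed an adjusted p of 0.05 (0% of all 19087 genes did) and 0 of 62 had an unadjusted p under 0.05, against 3.64% of all genes (1.59% positive and 2.05% negative) and 6.13% of the genes with a spot dim on no array. The smallest adjusted p was 0.9997. The mean ratio was positive for 32 genes and negative for 30 (48.4% negative, against 50.5% of all genes), and the median of the means was 0.00, as over all genes (-0.00). Of the 62 genes, 3 had an unadjusted p under 0.10 in limma (4.84%, against 7.77% of all genes): Slc38a2, Slc6a9 and Slc6a16. The half-width of the 95% interval of a gene's mean had a median of 0.35 for the 21 genes with a spot dim on no array and 0.17 for the other 41. Without replicate 3, 7 genes had an unadjusted p under 0.05, all on the negative side (Slc1a7, Slc6a4, Slc6a9, Slc7a7, Slc7a11, Slc38a1 and Slc38a9), and 4, 1 and 1 did without replicates 1, 2 and 4. The shares of all genes in those fits were 8.27%, 8.27%, 2.23% and 2.46%, and 0 genes of the array passed the adjusted threshold in any of them. These fits kept the dye term and so had fewer residual degrees of freedom than the 2 of the main fit. Their spread within a gene came only from the dye orientation that kept both arrays. Without replicate 1 or 3, the difference between replicates 1 and 3 thus did not enter it. A mean without a replicate is the line term of such a fit, called the fitted mean here. It gives each dye orientation equal weight and is not the plain mean of the arrays left.

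**Figure D1:**
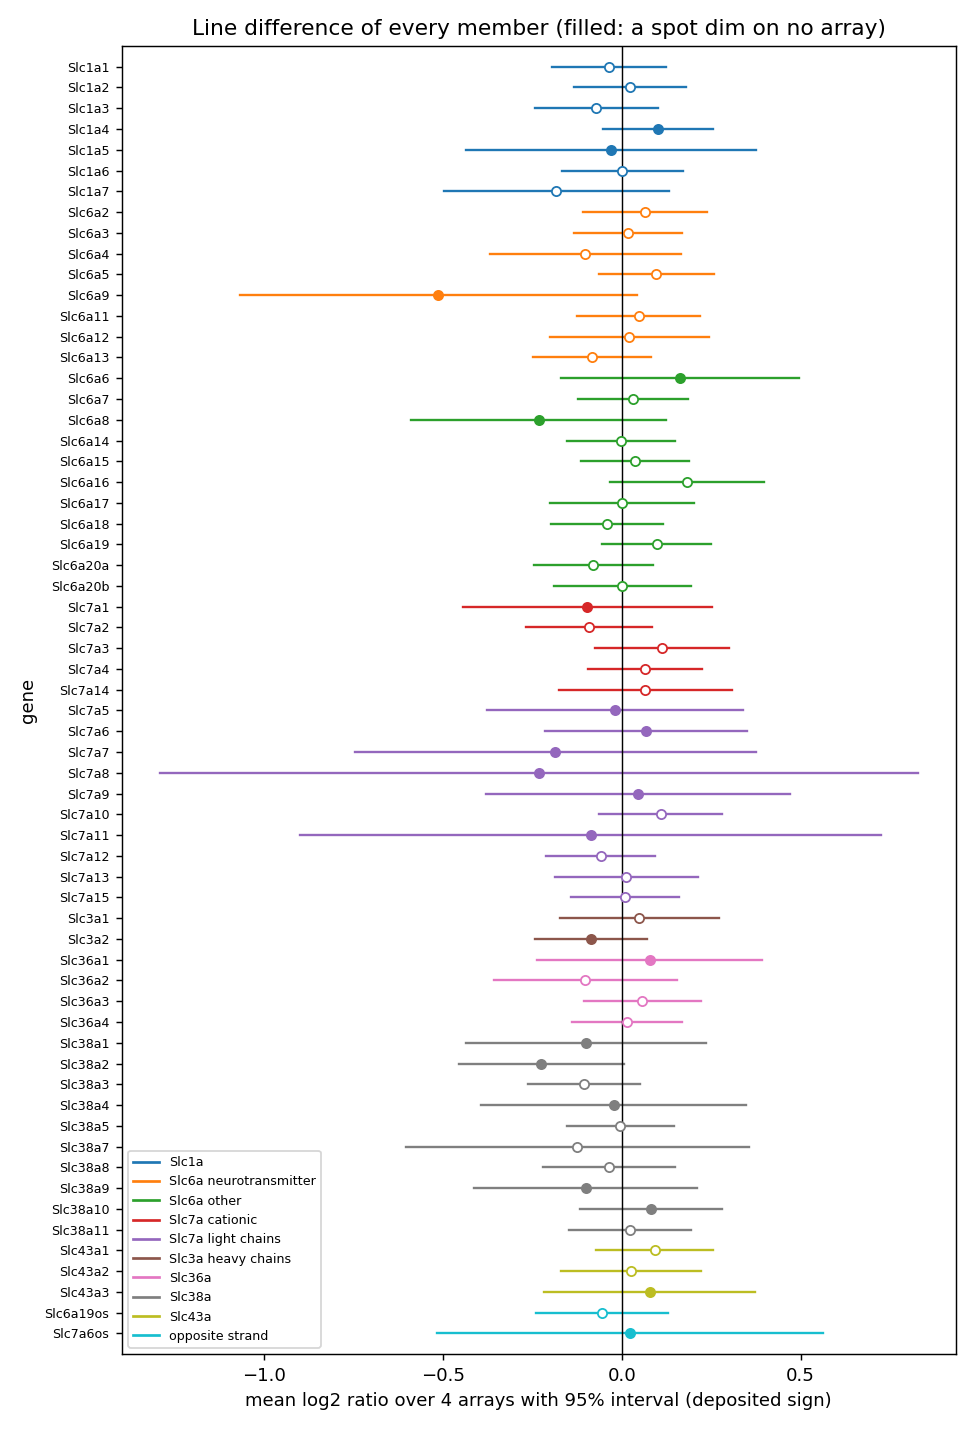
Mean log2 ratio of each of the 62 genes over 4 arrays (x axis, deposited sign) with the 95% interval of the limma fit, coloured by family; filled points mark genes with a spot dim on no array. Every interval includes 0, and the means run from -0.51 for Slc6a9 to 0.18 for Slc6a16.

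The heavy chain Slc3a2, also called CD98, carries most light chains of Slc7a to the surface. It had the second smallest range of the 21 genes with a spot dim on no array, 0.16. It had -0.04, -0.19, -0.03 and -0.09 on replicates 1 to 4, with the mean at -0.09 ± 0.07 (SD, n = 4) with a 95% interval from -0.24 to 0.07. All 4 values were negative and small, but its 2 spots lay on opposite sides of 0 on replicate 1 (-0.11 and 0.04), replicate 3 (-0.28 and 0.23) and replicate 4 (0.04 and -0.22). Of the 62 genes, 4 had 1 sign on all 4 arrays (6.45%, against 9.02% of all genes): Slc3a2, Slc38a3 and Slc7a12 on the negative side (3 of 62, 4.84%, against 4.65%) and Slc1a4 on the positive side (1 of 62, 1.61%, against 4.37%). Slc3a1, the heavy chain of kidney and gut, had only a spot dim on all 4 arrays, with 0.00, 0.28, -0.00 and -0.08.

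The light chains held the widest differences between pairs. Slc7a11, which imports cystine in exchange for glutamate and so feeds glutathione synthesis, had -0.89, -0.08, 0.85 and -0.22 on replicates 1 to 4. Replicate 1 was far on the negative side and replicate 3 far on the positive side, and the mean of -0.09 ± 0.72 (SD, n = 4; 95% interval -0.90 to 0.72) lay between them. The fitted mean was 0.35 without replicate 1 and -0.52 without replicate 3. Its 4 spots differed in size but not in this order of replicates 1 and 3. The spots dim on no array had -2.05, -0.32, 1.38 and -0.31 for the one and -1.50, -0.05, 0.99 and 0.03 for the other, and the spots dim on 1 and 3 arrays had -0.14 and 0.12 on replicate 1 and 0.79 and 0.23 on replicate 3. The gene's mean over spots is thus smaller in size than its steepest spots.

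Slc7a8, the light chain LAT2 for neutral amino acids, fell into pairs of arrays. Its single spot read -0.99 and -1.10 for replicates 1 and 2, against 0.55 and 0.61 for replicates 3 and 4. Each side held both dye orientations, and the mean was -0.23 ± 0.94 (SD, n = 4; 95% interval -1.29 to 0.83). Slc7a7 had -0.55, -0.62, 0.51 and -0.08, again negative on replicates 1 and 2 and highest on replicate 3. The ranges of Slc7a11, Slc7a8 and Slc7a7 over the arrays were 1.74, 1.71 and 1.13. Smaller ranges were found for 96.9%, 96.7% and 88.9% of the 9774 genes with a spot dim on no array.

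The light chains Slc7a5, Slc7a6 and Slc7a9 had narrower ranges, of 0.64, 0.45 and 0.70. Slc7a5, or LAT1, had -0.13, 0.26, 0.17 and -0.38 on replicates 1 to 4, with the mean at -0.02 ± 0.29 (SD, n = 4). Slc7a6, which exchanges cationic for neutral amino acids, had -0.09, 0.32, 0.17 and -0.13, a mean of 0.07 ± 0.22. Both were negative on replicates 1 and 4 and positive on replicates 2 and 3, and each mean was smaller than its SD over the pairs. Slc7a9, the partner of Slc3a1, had -0.26, 0.26, 0.44 and -0.26. Among light chains with no spot free of dim values, Slc7a10, a carrier of small neutral amino acids such as glycine and D-serine, had 0.19, 0.12, 0.19 and -0.07, and Slc7a12, Slc7a13 and Slc7a15 had means between -0.06 and 0.01. Slc7a6os, which lies next to Slc7a6, had -0.08, 0.67, -0.04 and -0.46 on replicates 1 to 4. The pair had the same sign on replicates 1, 2 and 4, with both highest on replicate 2 and lowest on replicate 4, and opposite signs on replicate 3. Whether the probes of either gene tell the strands apart was not tested.

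**Figure D2:**
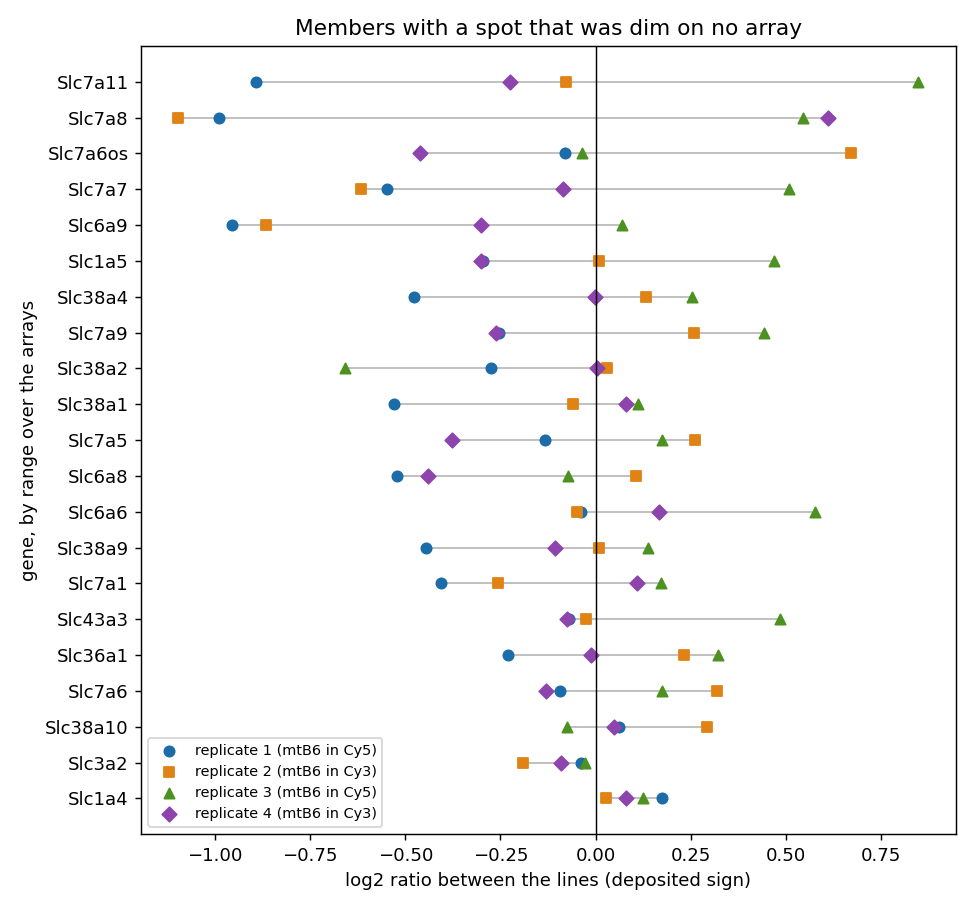
Log2 ratio (x axis, deposited sign) of the 21 genes with a spot dim on no array, 1 marker for each replicate array and a grey line over the range, ordered by that range. Replicate 1 lies below 0 for 19 of the 21 genes and replicate 3 above 0 for 16, with Slc7a11 spanning 1.74 and Slc1a4 spanning 0.15.

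The cationic carriers bring arginine, lysine and ornithine into the cell. Slc7a1, the widely expressed CAT1, had -0.41, -0.26, 0.17 and 0.11 on replicates 1 to 4, with the mean at -0.10 ± 0.28 (SD, n = 4). Its values were negative on replicates 1 and 2 and positive on the other two. They came from a spot with -0.83, -0.39, 0.52 and 0.20 that was dim on no array and a spot that ran from -0.17 to 0.02 and was dim on 1 array. Slc7a2, the form that macrophages induce with arginine metabolism, had -0.30, 0.16, -0.21 and -0.02 over a spot that was dim on all 4 arrays. Slc7a3, Slc7a4 and Slc7a14 had means between 0.06 and 0.11.

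Of the 10 genes of the Slc38a family, largely sodium-coupled carriers, 8 had a negative mean (against 50.5% of all genes). Without replicate 1, 5 of 10 had a negative fitted mean. By array, 7, 3, 6 and 5 of the 10 were negative on replicates 1 to 4. Slc38a2, or SNAT2, which cells are known to induce when starved of amino acids, had the smallest p for line of the 62 genes, a limma p of 0.0541 with an adjusted p of 0.9997. It had -0.27, 0.03, -0.66 and 0.00 on replicates 1 to 4, with the mean at -0.23 ± 0.32 (SD, n = 4; 95% interval -0.46 to 0.01). The values were negative on replicates 1 and 3, where mtB6 was in Cy5, and close to 0 on replicates 2 and 4. Its dye effect was -0.48, with an unadjusted limma p of 0.0438. For dye, 0 of 62 genes passed the adjusted threshold (0% of all genes did), and 3 of the 62 genes had an unadjusted p under 0.05 for dye (4.84%, against 8.97% of all genes), the others being Slc6a19 and Slc7a15. The 4 spots of Slc38a2 had -1.51, -0.29, -0.53 and -0.30 on replicate 3, all negative, so that 1 spot makes up much of that value. The fitted mean was -0.13 without replicate 3, -0.32 without replicate 1 and -0.14 with the median of the spots.

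Slc38a1, a neutral amino acid carrier of many growing cells, was measured by 6 spots. It had -0.53, -0.06, 0.11 and 0.08 on replicates 1 to 4, with replicate 1 apart from the others and a mean of -0.10 ± 0.30 (SD, n = 4). On replicate 1 the 5 spots dim on no array ran from -1.17 to 0.26. Slc38a9, the lysosomal carrier that senses arginine for mTORC1, had -0.45, 0.01, 0.14 and -0.11, and all 4 of its spots were negative on replicate 1. Slc38a4 had -0.48, 0.13, 0.25 and -0.00. Without replicate 1 the fitted means of Slc38a1 and Slc38a9 were 0.06 and 0.04. The glutamine carrier Slc38a3 had -0.04, -0.12, -0.14 and -0.12 over a spot that was dim on 3 arrays. Slc38a7, a lysosomal glutamine carrier, had -0.38, 0.15, 0.31 and -0.57 over a spot dim on 1 array.

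**Figure D3:**
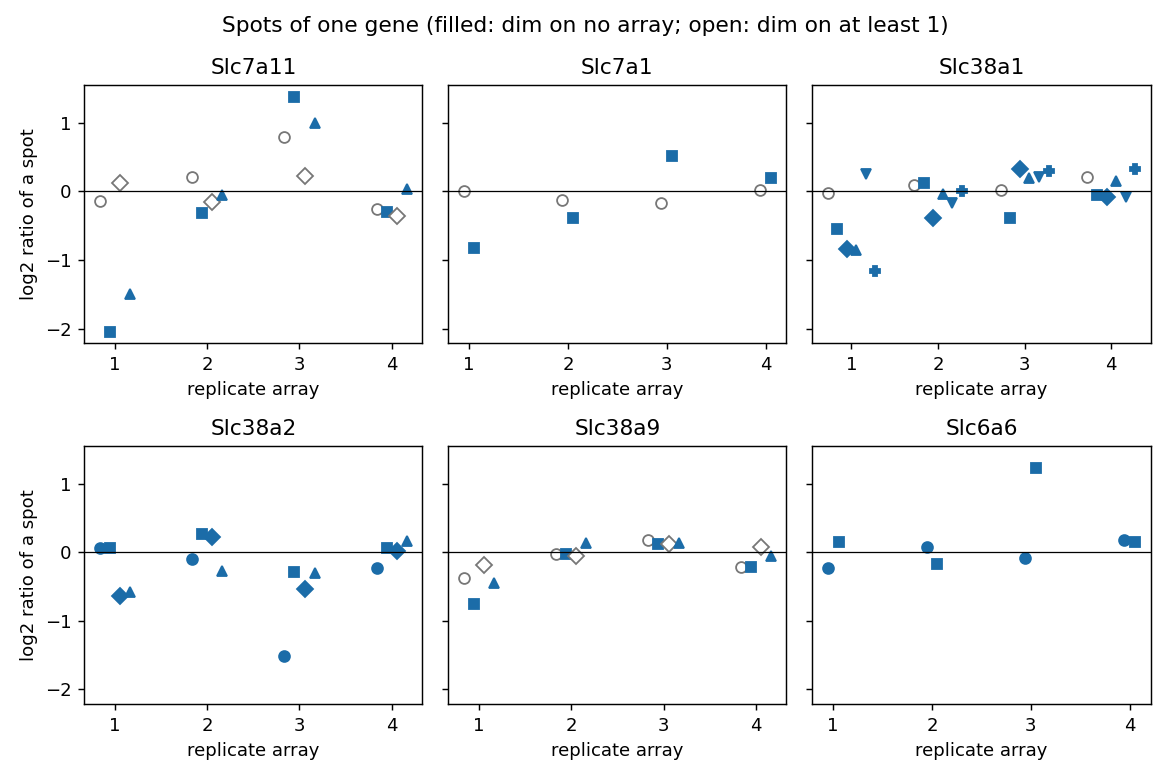
Log2 ratio of each spot (y axis) on the 4 replicate arrays (x axis) for 6 genes with several spots; each marker shape is 1 spot, filled where it was dim on no array and open where it was dim on at least 1. The filled spots of Slc7a11 lie at -2.05 and -1.50 on replicate 1 and at 1.38 and 0.99 on replicate 3, while a spot of Slc6a6 stands alone at 1.23 on replicate 3.

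Of the glutamate and neutral amino acid carriers, Slc1a5 and Slc1a4 had spots dim on no array. Slc1a5, the glutamine exchanger ASCT2, had -0.30, 0.01, 0.47 and -0.30 on replicates 1 to 4, with the mean at -0.03 ± 0.36 (SD, n = 4). It was highest on replicate 3 and near -0.30 on replicates 1 and 4. Slc1a4 had 0.17, 0.03, 0.12 and 0.08, positive on each array, with a mean of 0.10 ± 0.06 and a limma p of 0.145 (adjusted p = 0.9997). Its 2 spots differed on replicate 3, where they had 0.30 and -0.05, and on replicate 4, where they had -0.23 and 0.39. The glutamate carriers Slc1a1, Slc1a2, Slc1a3 and Slc1a6, best known from neurons and glia, had means between -0.07 and 0.02. Slc1a7 had -0.48, -0.13, 0.12 and -0.23 over a spot that was dim on 3 arrays.

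In the Slc6a family, the glycine carrier Slc6a9, or GlyT1, had the most negative mean of the 62 genes. It had -0.96, -0.87, 0.07 and -0.30 on replicates 1 to 4, with the mean at -0.51 ± 0.48 (SD, n = 4; 95% interval -1.07 to 0.04) with a limma p of 0.0628 (adjusted p = 0.9997). The values on replicates 1, 2 and 4 were negative and that on replicate 3 was close to 0. The fitted mean was -0.77 without replicate 3 and -0.26 without replicate 1. Slc6a9 rested on 1 spot, dim on no array. With no dye term its unadjusted limma p was 0.0318 (adjusted p = 0.9999). Slc6a8, the creatine carrier, had -0.52, 0.11, -0.07 and -0.44, a mean of -0.23 ± 0.30, negative on 3 of 4 arrays. Its fitted mean was -0.0956 without replicate 4 and -0.37 without replicate 2. Slc6a6, the taurine carrier, had -0.04, -0.05, 0.57 and 0.17, a mean of 0.16 ± 0.29, and the value on replicate 3 came from 1 of its 2 spots (1.23, against -0.09 for the other). The fitted mean of Slc6a6 was 0.01 without replicate 3 and 0.32 without replicate 1.

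The Slc6a genes of neurons and epithelia had no spot free of dim values and small ratios. The noradrenaline, dopamine and serotonin carriers Slc6a2, Slc6a3 and Slc6a4, the glycine carrier Slc6a5 and the GABA or betaine carriers Slc6a11, Slc6a12 and Slc6a13 had means between -0.10 and 0.10. Slc6a5 had -0.07, 0.20, 0.06 and 0.20 on replicates 1 to 4. Slc6a16, a member with no known substrate, had the most positive mean of the 62 genes, with 0.29, -0.00, 0.14 and 0.30 on replicates 1 to 4, with the mean at 0.18 ± 0.14 and a limma p of 0.0807 (adjusted p = 0.9997). Slc6a19, the neutral amino acid carrier of gut and kidney, followed the dye, with -0.05, 0.28, -0.07 and 0.23, and Slc7a15 did so too, with -0.22, 0.21, -0.22 and 0.26. Of the 62 genes, 11 changed sign with the dye orientation (17.7%, against 21.3% of all genes), and 10 of these 11 had no spot free of dim values. Among the 21 genes with a spot dim on no array, only Slc38a2 changed sign with the dye (4.76%, against 15.4%). Slc6a20a and Slc6a20b, neighbouring and closely related genes whose probes may share targets, had means of -0.08 and 0.00.

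The proton-coupled and facilitative carriers had means between -0.10 and 0.09. Slc36a1, which exports amino acids from lysosomes, had -0.23, 0.23, 0.32 and -0.01 on replicates 1 to 4, with the mean at 0.08 ± 0.25 (SD, n = 4). That mean joins a spot dim on no array, with a mean of 0.20, and a spot dim on all 4 arrays, with -0.0490. Slc36a4 had 0.11, -0.03, 0.06 and -0.08, changing sign with the dye. All 3 Slc43a genes had positive means, between 0.03 and 0.09, and 1 of 3 had a positive fitted mean without replicate 3. The large neutral amino acid carriers Slc43a1 and Slc43a2 had 0.32, -0.04, 0.19 and -0.10 and 0.01, -0.15, 0.20 and 0.04, with spots dim on all 4 arrays. Slc43a3, a carrier of purine bases, had -0.07, -0.03, 0.48 and -0.07, so that replicate 3 alone was away from 0 and the mean was -0.06 without it.

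Across the 21 genes with a spot dim on no array, the pairs differed more than the lines. On replicate 1, 19 of 21 were below 0 (90.5%, against 48.9% of the 9774 genes with a spot dim on no array), and on replicate 3, 16 of 21 were above 0 (76.2%, against 52.1%). A total of 15 genes were below 0 on replicate 1 and above 0 on replicate 3 (71.4%, against 27.7%), while 1 gene, Slc38a10, was the reverse (4.76%, against 26.7%). On replicates 2 and 4, 9 and 14 of 21 were below 0 (42.9% and 66.7%, against 54.8% and 53.3%), and 13 of 21 means were (61.9%, against 52.9%). A range of at least 1 was found for 5 of 21 (23.8%, against 15.2%). Neither pattern of replicates 1 and 3 was met by Slc1a4, Slc3a2, Slc6a8, Slc7a6os and Slc38a2. The median over the 21 genes was -0.27, 0.01, 0.17 and -0.08 on replicates 1 to 4, where the medians over all such genes were 0.01, -0.02, 0.01 and -0.02. Both arrays had mtB6 in Cy5, so the opposite signs do not follow the dye. These signs were read off after the values were seen and were not tested, and what sets replicates 1 and 3 apart was not tested.

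**Figure D4:**
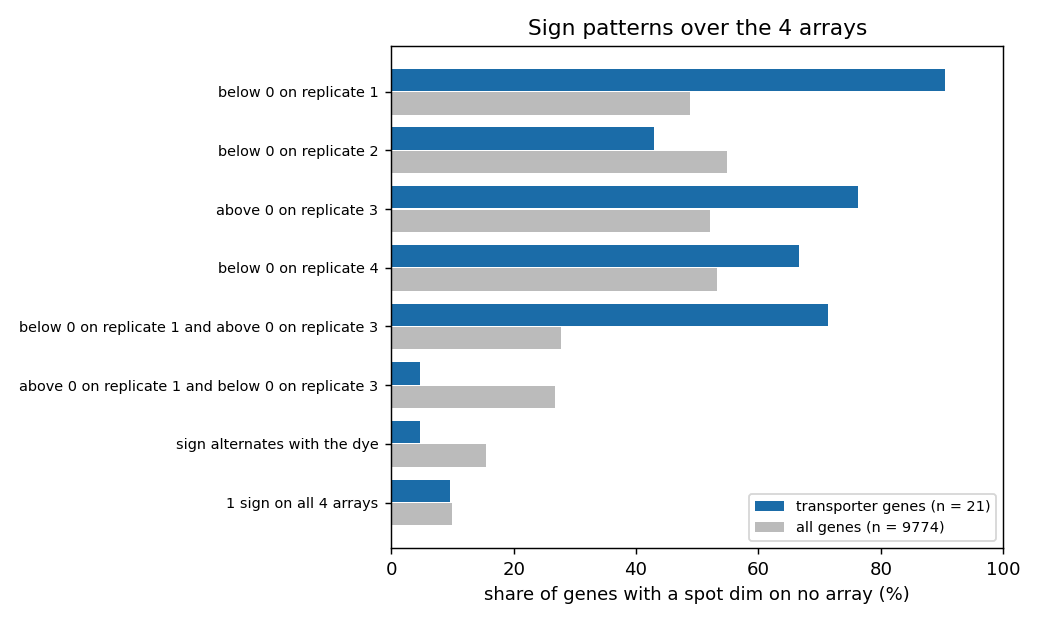
Share of genes (x axis, percent) with each sign pattern over the 4 arrays, for the 21 carrier genes (blue, Slc7a6os included) and all 9774 genes (grey) with a spot dim on no array. The widest gap is for values below 0 on replicate 1 and above 0 on replicate 3, at 71.4% against 27.7%.

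Genes around the carriers were read for comparison. Of 18 genes of the amino acid response, 2 had an unadjusted limma p under 0.05, both negative, and 0 passed the adjusted threshold; 12 of 18 means were negative (against 50.5% of all genes) and their median was -0.10. Over all genes 3.64% had such a p (2.05% on the negative side), and 6.13% of genes with a spot dim on no array, which 15 of the 18 had. Ppp1r15a, which restores translation after stress, had -0.52, 0.01, -0.96 and -0.32 on replicates 1 to 4, and Ddit4, an inhibitor of mTOR, had -0.22, -0.19, -0.58 and -0.75. On replicates 1 and 3 the medians of this list were -0.18 and 0.00. Of 30 genes of lysosomal amino acid sensing, an unadjusted limma p under 0.05 was found for Castor1, with a positive mean, and Flcn, with a negative one. These 2 of 30 compare with 6.13% of genes with a spot dim on no array, which 27 of the 30 had. Of the 30 means, 20 were negative (against 50.5% of all genes), and the median was -0.02. Flcn, which acts on Rag GTPases, had -0.27, -0.27, -0.41 and -0.02, and the arginine sensor Castor1 had 0.30, -0.02, 0.56 and -0.04, following the dye.

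Other carriers and the enzymes downstream had no gene at an unadjusted limma p under 0.05. Among 16 other amino acid and peptide carriers, 11 means were negative (against 50.5% of all genes) and the median was -0.03. The mitochondrial aspartate and glutamate carrier Slc25a13 had -0.02, 0.17, 0.95 and 0.17 on replicates 1 to 4, and the glutamate carrier Slc25a18 had 0.10, 0.06, 0.24 and 0.02. Among 11 measured enzymes of glutamine and glutathione metabolism, of 15 listed, 7 means were negative (against 50.5% of all genes). Their medians were -0.11, -0.05, 0.19 and -0.26 on replicates 1 to 4. Gclm, the modifier subunit of the first enzyme of glutathione synthesis, had 1.01, -0.03, -0.14 and 0.19, and glutathione reductase, Gsr, had 0.60, -0.04, -0.04 and 0.42. On replicate 1, where Slc7a11 had -0.89, both were thus on the positive side.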

How the data were processed

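Per the labels, total RNA of paired mtB6 and mtBALB cultures was hybridised to 4 two-colour arrays. The authors deposited 1 log ratio per spot and array, read here as log2. For the log base, the numerator, filters, normalization and background correction no statement was at hand; the submitters' processing notes name limma with no version. Medians of the 45220 deposited spots were -9.77e-04, -0.0033, 0.0051 and -0.0030 on replicates 1 to 4. Spots without a gene that were at least 0.6 from 0 on each array numbered 171: the sign followed the dye in 163 and was constant in 0. Control transcripts that follow the dye would do so in turned ratios. Transcripts that differ between the lines would do so in unturned ones, so these spots cannot decide. Over all spots, the correlations between arrays of opposite dye orientation were -0.24 (replicates 1 and 2), -0.17 (1 and 4), -0.19 (2 and 3) and -0.22 (3 and 4). Those of like orientation were -0.00 (1 and 3) and 0.27 (2 and 4). The ratios were taken as turned to 1 direction, which was not settled.

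Spots with 1 platform symbol (33653; 56 had several and 11511 none) were averaged per gene. All 62 members kept their symbol in RefSeq GRCm38.p6, and no value was missing. In limma 3.58.1 (R 4.3.3) lmFit and eBayes were run on 19087 genes with line and dye terms, 2 residual degrees of freedom, and Benjamini-Hochberg adjustment. The fit was tested on simulated data. The number of arrays limits the precision. Signal over background is unknown.

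Genes are named by this rule: 19 carriers of common use in cultured cells; the 5 genes of smallest p on either side of 0; the 5 of largest range among genes with a spot dim on no array; the 3 of smallest p for dye; and the 2 genes of smallest p of each other list. Others are given as values, and the sign patterns were chosen after the values were seen. Figures were drawn with matplotlib 3.10.9 (Python 3.11.15). The members and lists were chosen with earlier results of these data known. Alternatives were no dye term, ratios not turned, spots dim on no array, the median of spots, arrays centred and scaled, robust eBayes, and leaving out each replicate.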

Additional observations from a re-analysis of the deposited data

Results flagged for a closer look

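In 2 of 30 sets of 4 values, 1 array stood far from the other 3 by Dixon's criterion, and chance marks about 1 in 20. Slc43a3 had 0.483 on replicate 3, with the other arrays between -0.07 and -0.03. Slc38a3 had -0.0378 on replicate 1, with the others between -0.14 and -0.12.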

How the results depend on the processing

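No gene of the array passed the adjusted threshold for line or for dye in limma under any of the 10 alternatives, so that only directions and unadjusted counts could change. With no dye term, 1 of 62 members had an unadjusted limma p under 0.05, against 2.92% of all genes. With ratios taken as not turned, 3 of 62 did, against 8.97%. Without 1 replicate the count was 1 to 7, against 2.23% to 8.27%. The count with 1 sign on all arrays, 4 of 62 (9.02% of all genes), was 11 of 62 with ratios not turned, against 21.3%. It was 2 of 21 over spots dim on no array. Over the 3 arrays left without 1 replicate it was 8 to 15, where fewer arrays make 1 sign more likely. For these other settings no share of all genes was taken. The median of the members' fitted means stayed between -0.03 and 0.04. The 29 named members kept their side of 0 with no dye term, the median of spots, scaled arrays and robust eBayes, as did the 18 that had spots dim on no array. With ratios taken as not turned, 15 of 29 changed side: Slc1a5 0.12, Slc3a2 0.0540, Slc6a9 0.0699, Slc7a5 0.0396, Slc7a6 -0.0271, Slc7a11 0.0649, Slc36a1 -0.0326, Slc6a19 -0.16, Slc6a5 -0.10, Slc38a3 0.0177, Slc1a7 0.0013, Slc7a8 0.0103, Slc7a6os -0.0816, Slc7a7 0.17, Slc7a15 -0.23.

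Leaving out 1 replicate turned the fitted mean (each dye orientation weighted equally) of these members, with the range over the 4 exclusions: Slc1a5 -0.22 to 0.16, Slc36a1 -0.0603 to 0.22, Slc38a1 -0.26 to 0.0605, Slc38a9 -0.25 to 0.0447, Slc43a2 -0.0232 to 0.0760, Slc43a3 -0.0607 to 0.22, Slc7a1 -0.24 to 0.0489, Slc7a11 -0.52 to 0.35, Slc7a15 -0.0031 to 0.0202, Slc7a5 -0.18 to 0.14, Slc7a6 -0.0445 to 0.18, Slc7a6os -0.26 to 0.31, Slc7a7 -0.45 to 0.0787, Slc7a8 -0.66 to 0.19. The plain mean of the arrays left can keep its side, as for Slc7a7 without replicate 1. Without a turn, fitted means moved most for Slc1a7 (-0.33 to -0.0331), Slc43a1 (0.0607 to 0.12), Slc6a16 (0.11 to 0.26), Slc6a6 (0.0100 to 0.32), Slc6a8 (-0.37 to -0.0956), Slc6a9 (-0.77 to -0.26), Slc7a10 (0.0618 to 0.16), Slc7a2 (-0.14 to -0.0480) and Slc38a2 (-0.32 to -0.13). Slc36a4 stayed between 0.0015 and 0.0288. The turns of the fitted mean numbered 8 without replicate 1, 3 without replicate 2, 3 without replicate 3 and 4 without replicate 4. The cause was not tested. No paired analysis was possible because none is left to add: each ratio is already taken within a pair, so that the limma fit is itself paired. Without signal over background a dim carrier's small ratio cannot be told from an unmeasured one.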

Other observations

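Several carrier genes are direct neighbours among protein-coding genes (RefSeq GRCm38.p6, gene order only). Slc38a1, Slc38a2 and Slc38a4 follow each other on chromosome 15 with 0 such genes between them. On replicate 1 they had -0.53, -0.27 and -0.48, and on replicate 3 they had 0.11, -0.66 and 0.25, so that Slc38a2 parted from both of its neighbours there. Slc36a3, Slc36a2 and Slc36a1 adjoin on chromosome 11, and on replicate 2 they had 0.02, -0.44 and 0.23. Of the 28 carrier genes with several spots, 17 had spot means on both sides of 0. The share over all genes with several spots was not taken, so the count is not read as a trait of the carriers.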
